A study of Mus musculus with 9 samples.

Results

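The clustered protocadherins are a family of neighbouring cell adhesion genes on mouse chromosome 18, and 58 of the 50813 genes in the deposited table belong to it. They were chosen by gene name alone, as the rows named Pcdha or Pcdhac, Pcdhb, and Pcdhga, Pcdhgb or Pcdhgc followed by a number, so no measured value entered the choice. In GRCm39 the 14 alpha members run from 37063237 to 37320714, the 22 beta members from 37397991 to 37657532 and the 22 gamma members from 37794846 to 37974926, all on the plus strand. RNA-seq had been done on LLC (Lewis lung carcinoma), a mouse lung cancer line that stably carries luciferase, grown in culture without any drug. There were 3 libraries each for wild-type (WT) cells and for the CD47 knockout (KO) clones E3 and E5. Both KO clones had received Cas9 protein with a guide RNA against Cd47, the gene of a surface receptor, and had been expanded from single cells. Each KO genotype is therefore 1 clone, the replicates show the spread within a line, and the effect of the knockout cannot be told apart from differences between clones. The sources used here do not describe the WT cells as expanded from a single cell. If they were not, the knockout cannot be told apart from single-cell expansion either.

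Clustered protocadherins bind copies of themselves on neighbouring cells. In the alpha and gamma clusters each variable exon has a promoter of its own and encodes the extracellular domains, the membrane-spanning stretch and the start of the tail, and splicing joins it to constant exons that encode the rest of the tail. Beta genes have a single coding exon and no constant part. The family is best known in neurons, where CTCF and cohesin bring a distant enhancer to a few chosen promoters and DNA methylation keeps the others silent, so that each neuron carries its own set of isoforms. The C-type members (Pcdhac1, Pcdhac2, Pcdhgc3, Pcdhgc4 and Pcdhgc5) are chosen less at random than the rest and follow the cell type.

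Total counts were 44257404 to 55095219 per library. Cd47 was at 182 ± 3.92 CPM (counts scaled to library size with TMM factors, mean ± SD, n = 3) in WT cells, 44.6 ± 6.87 in clone E3 and 17.4 ± 1.66 in clone E5. Replicate 3 of clone E3 stood apart. Compared with the other E3 libraries, the chi-square statistic over its degrees of freedom was 186 and 224, against 4.71 to 37.9 for the other replicate pairs. It also held 5828 counts of clustered protocadherins, or 0.0132% of its total, while the other 8 libraries held 11825 to 16328 counts, or up to 0.0335%. All 4 mesenchymal markers (Vim, Cdh2, Fn1, Sparc) were present, whereas the 4 lung lineage markers (Nkx2-1, Sftpc, Sftpb, Scgb1a1) were at 0 in every library. The 4 immune and 3 endothelial markers summed to at most 0.200 CPM, and of 7 neuronal markers Stmn2 and Dcx were at 0 while Syn1 was at 13.2 to 25.2 CPM by line.

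Few alpha members, about as many beta members as not, and most gamma members were in use. A mean of at least 10 counts over the 9 libraries was reached by 1 of 14 alpha members, 10 of 22 beta members and 18 of 22 gamma members. At the other end, 12 members had no count in any library, namely 11 alpha members and Pcdhb1, and 17 members had at most 3 counts in every library, which is the limit of detection used here. Within the alpha cluster, none of the 12 members named Pcdha1 to Pcdha12 exceeded 2 counts in a library. Counts were seen for Pcdha9 and Pcdha12, in 2 libraries each, and the C-type Pcdhac1 was at 0 throughout.

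Within the beta cluster, counts came from the end nearer the gamma cluster. Of the 13 genes Pcdhb1 to Pcdhb13, which lie nearest the alpha cluster, 1 had a mean of at least 10 counts, and together they gave 5.22% of all beta counts. All 9 genes from Pcdhb14 to Pcdhb22 passed that level, with mean counts of 12.3 to 285, and they gave the other 94.8%. The cut at Pcdhb14 followed no rule set in advance, and these counts are not divided by length. In CPM per kb of exon in WT cells, Pcdhb5, at 0.106, lay above Pcdhb14, Pcdhb15 and Pcdhb19, at 0.058, 0.091 and 0.074. In the gamma cluster the variable exons are of types A, B and C. Among them 10 of 12 A members, 5 of 7 B members and all 3 C members had a mean of at least 10 counts.

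The level of a member is given below as CPM per kb of exon that no other gene shares on that strand, because the alpha members share constant exons with each other, as do the gamma members. The deposited counts of those genes did not include the common exons for every member: Pcdhgb4 had 0 to 5 counts per library, although its annotated constant exons are those of Pcdhgc3, which averaged 9356 counts. How reads of the constant exons were assigned is not given in the sources used here, so a share describes the counts as deposited.

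**Figure D1:**
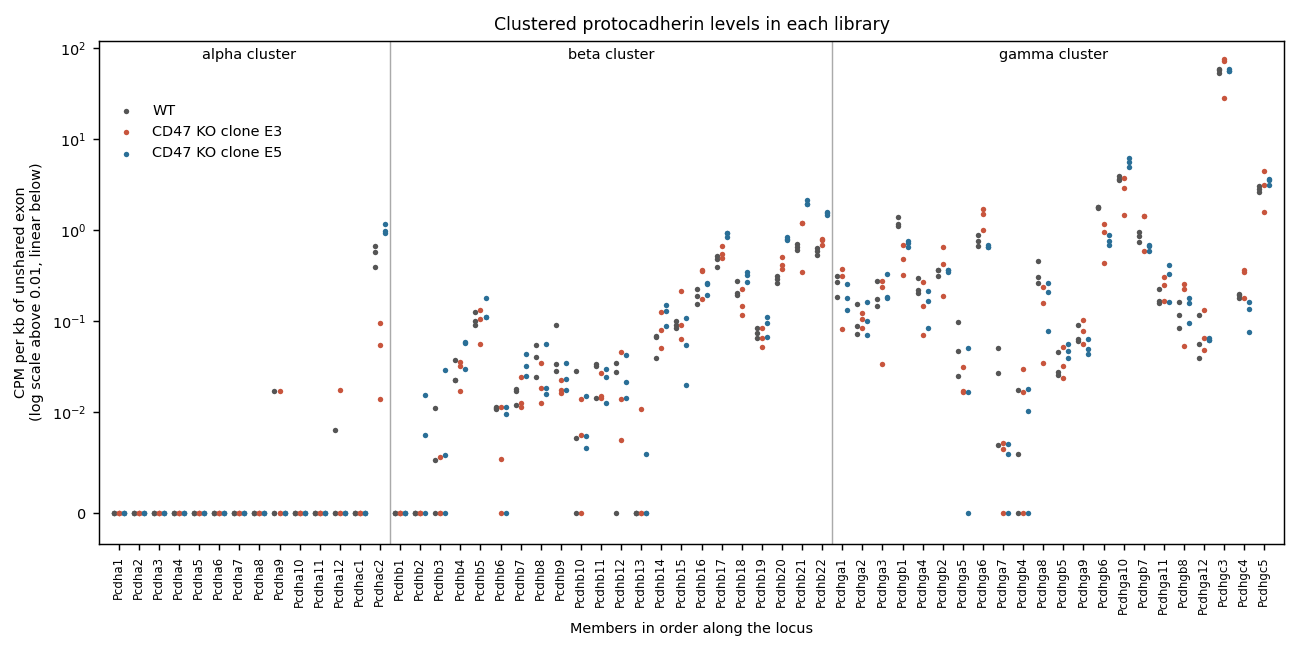
Level of each of the 58 clustered protocadherins in each of the 9 libraries, as CPM per kb of unshared exon (vertical axis, logarithmic above 0.01 and linear below), with members in order along the locus. Except for Pcdha9 and Pcdha12 in 2 libraries each, points stay at 0 across the alpha cluster until Pcdhac2, they are higher in the last 9 beta genes than in most earlier ones, and Pcdhgc3 is highest.

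In each comparison few members differed: Pcdhac2 and some gamma members were lower in clone E3, and a group of beta members was higher in clone E5. With edgeR's quasi-likelihood test, Benjamini-Hochberg adjustment over all 14593 genes tested and an absolute log2 fold change above 1, 3 of the 30 members tested were lower and 0 higher in clone E3 than in WT cells, where 9.82% of all genes tested were called, 5.43% higher and 4.39% lower. In clone E5, 3 members rose and 1 fell against WT cells, and the background was 8.21% of genes, 2.69% higher and 5.52% lower. Between the clones, 4 members were higher in E5 than in E3 and 2 lower, beside 11.0% of all genes, 3.49% higher and 7.52% lower. The share of tested members called, 10.0%, 13.3% and 20.0%, was thus near the background in E3, and rested on 4 and 6 genes in the others. At an FDR under 0.05 without the threshold on fold, 6, 6 and 9 members passed, against 30.5%, 20.6% and 31.9% of all genes. The median log2 fold change of the tested members was 0.15 in E3 and 0.24 in E5 against WT, and 0.23 for E5 against E3. For all genes tested the medians were 0.01, -0.0023 and -0.011. The comparisons share libraries, so their counts are not independent of each other.

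Replicate 3 of clone E3 weighed on these counts. Without it, 3 members were still called in E3 against WT, but 13 rather than 6 passed at an FDR under 0.05 alone, and the calls were 1 higher and 2 lower. For E5 against E3 its removal gave 5 calls, 2 higher and 3 lower, with 14 members at an FDR under 0.05. The loss of E5 replicate 2 left 3 calls between the clones, and without E3 replicate 1 all 6 calls were higher in E5. Upper-quartile scaling in place of TMM gave 2 higher and 2 lower between the clones.

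**Figure D2:**
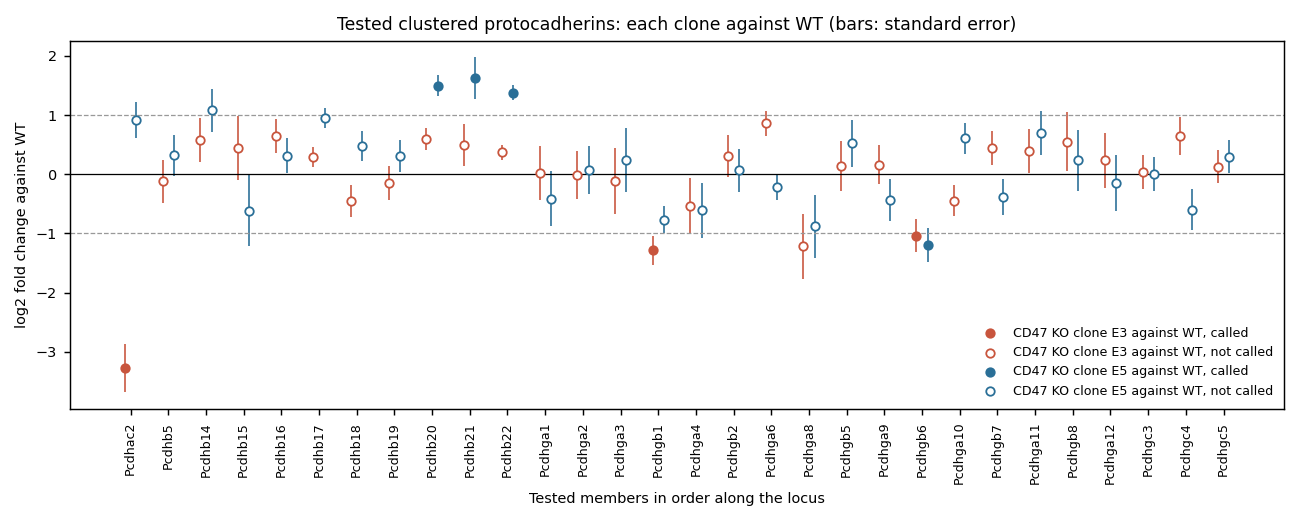
The log2 fold change against WT of the 30 clustered protocadherins tested, in order along the locus, with clone E3 in red and clone E5 in blue. Bars are standard errors, filled points are called and dashed lines mark a log2 fold change of 1 in either direction. Pcdhac2 in E3 lies lowest at -3.27, and the filled points above 1 are Pcdhb20, Pcdhb21 and Pcdhb22 in E5.

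Pcdhac2 was the only alpha member above the limit of detection, and its level separated the 3 lines. It encodes a C-type alpha isoform, which in the brain is needed by serotonergic axons to spread over their targets. The WT libraries had 2.08, 1.81 and 1.22 CPM, those of clone E3 0.300, 0.169 and 0.0440, and those of clone E5 2.93, 3.08 and 3.68. No values overlapped between any pair of lines, with E3 lowest and E5 highest. Pcdhac2 fell in clone E3, with a log2 fold change of -3.27 (SE 0.41, FDR = 0.0003). In clone E5 it was 0.92 higher than in WT cells (SE 0.30), which missed the threshold at FDR = 0.055. The clones differed from each other by 4.20 (SE 0.40, FDR = 3.2e-05).

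Both of the Pcdhac2 calls held in every alternative that tested the gene, and a filter of at least 10 counts in every library removed it. Clone E3 had 15, 8 and 2 counts of it in its libraries. Without E3 replicate 1 the fold changes were -3.96 for E3 against WT and 4.87 for E5 against E3. Epithelial keratins were lowest and highest in the same lines: the 5 epithelial markers summed to 450.5 to 458 CPM in WT cells, 127 to 198 in E3 and 896 to 957 in E5. Nearly all of that sum was Krt8 and Krt18, while Epcam was at 0 in all libraries and Cdh1 and Cldn7 averaged at most 0.050 CPM in any line. Among the mesenchymal markers, Vim and Cdh2 also had their highest means in E5. They were at 6571 and 31.4 CPM there, against 4166 and 26.4 in WT cells. Fn1 was highest in WT cells, at a mean of 1929 CPM, and Sparc in E3, at 607. The part of any of these markers in the Pcdhac2 result was not tested. Nor can fewer expressing cells be told apart from less RNA per cell in bulk libraries.

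In the beta cluster the summed level was higher in clone E5 than in the other lines. The sum was 2.94 ± 0.147 CPM per kb in WT cells, 3.65 ± 0.871 in clone E3 and 6.41 ± 0.177 in clone E5 (SD, n = 3). Of its 10 tested members, 3 rose in E5 against WT and none fell, beside 2.69% and 5.52% of all genes. Of the 10 fold changes 9 were positive, with a median of 0.71. In E3 none of the 10 was called, with a median of 0.40. At an FDR under 0.05 alone 2 of them, Pcdhb20 and Pcdhb22, passed in E3, beside 30.5% of all genes. The 3 that rose lie side by side at the end of the cluster farthest from the alpha genes.

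Pcdhb22, the last beta gene, was at 3.93, 3.66 and 3.25 CPM in WT cells, 4.84, 4.25 and 4.90 in E3 and 9.05, 9.59 and 9.49 in E5. Every E3 library lay above every WT library and every E5 library above both. Its log2 fold change was 1.37 in E5 (SE 0.12, FDR = 3.2e-05) and 0.37 in E3 (SE 0.13, FDR = 0.049). The clones differed by 1.01 (SE 0.12, FDR = 0.00018), a value at the edge of the fold threshold that dropped to 0.91 with upper-quartile scaling, 0.94 without E3 replicate 2 and 0.99 without E5 replicate 2.

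Pcdhb21, its neighbour, was at 2.74, 2.55 and 3.02 CPM in WT cells, 5.10, 5.09 and 1.47 in E3 and 9.03, 8.31 and 8.21 in E5. The E5 libraries lay above all others. In E3, replicates 1 and 2 were above WT and replicate 3 was below. The rise in E5 was 1.62 (SE 0.35, FDR = 0.0088), and E5 against E3 gave 1.13 (SE 0.34, FDR = 0.030). That difference between the clones fell to 0.75 without E3 replicate 3, and its FDR was 0.069 to 0.082 without any of the E5 libraries in turn. The exons of Pcdhb21 and Pcdhb22 share 455 bases on the same strand, and how reads there were counted is not given in the sources used here.

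Pcdhb20 was at 0.921, 1.03 and 1.10 CPM in WT cells, 1.80, 1.46 and 1.34 in E3 and 2.84, 3.01 and 2.76 in E5. The 3 lines did not overlap. It rose in E5 by 1.50 (SE 0.17, FDR = 0.00019), and in E3 the change of 0.59 (SE 0.18, FDR = 0.030) stayed under the fold threshold. Between the clones it differed by 0.90 (SE 0.17, FDR = 0.0026), and by 1.03 without E3 replicate 1. Pcdhb17, among the 3 highest beta members, was at 2.24, 1.81 and 2.41 CPM in WT cells, 3.08, 2.56 and 2.29 in E3 and 4.33, 3.86 and 4.33 in E5. Its E5 libraries lay above the rest, and its log2 fold change of 0.95 (SE 0.17, FDR = 0.0027) fell just short of the fold threshold. It passed without WT replicate 3, at 1.04, and without E5 replicate 2, at 1.00. The calls of Pcdhb20, Pcdhb21 and Pcdhb22 in E5 against WT held in every alternative.

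Isoform choice in the beta cluster was described by the share of its summed level that each member held. Pcdhb21 held 22.2% ± 0.996 in WT cells and 31.3% ± 1.66 in clone E5 (SD, n = 3), and every E5 library, at 29.7 to 33.0%, lay above every WT library, at 21.6 to 23.3%. In clone E3 the share was 27.4% and 31.0% in replicates 1 and 2. In replicate 3 it was 12.9%, and there Pcdhb22 led with 29.7%. The inverse Simpson number, which is the number of equally used members that would give the same concentration of shares, was 7.22 ± 0.0813 in WT cells, 6.07 ± 0.313 in E3 and 5.13 ± 0.282 in E5. These numbers did not overlap between the lines. The leader depends on the length used, since by counts alone Pcdhb22 led in all 3 lines with 25.7%, 27.7% and 30.4%.

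The gamma cluster summed to 70.0 ± 3.22 CPM per kb in WT cells, 70.0 ± 31.0 in E3 and 70.5 ± 2.16 in E5 (SD, n = 3), and Pcdhgc3 made up most of it. No E3 library lay near its mean: the sums were 91.0 and 84.6 in replicates 1 and 2, above all WT and E5 libraries, and 34.3 in replicate 3, below all of them. This C-type isoform is widely expressed outside neurons too. It was at 181, 194 and 201 CPM in WT cells, 253, 242 and 94.3 in E3 and 188, 199 and 189 in E5. WT and E5 libraries covered the same range, whereas in E3 replicates 1 and 2 lay above it and replicate 3 well below. Neither clone passed the test, with log2 fold changes of 0.035 in E3 (SE 0.28, FDR = 0.94) and 0.00015 in E5 (SE 0.28, FDR = 1.00). Without E3 replicate 3 the E3 value was 0.37 (FDR = 0.0009) and E5 against E3 was -0.36 (FDR = 0.0010), both under the fold threshold.

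Pcdhgc3 held 79.2 to 84.7% of the gamma level in all 9 libraries, with means of 81.0% ± 0.794 in WT cells, 82.7% ± 1.77 in E3 and 80.4% ± 1.07 in E5. Of its 3381 unshared exon bases, 46.1% lie opposite exons of the antisense gene BC037039, which had 66 to 142 counts per library. The strand setting of the counting is not given in the sources used here. The share was 90.9%, 91.2% and 92.1% when those bases were left out of the length and Pcdhga10, which then has no unshared base, was left out of the sum. All counts of Pcdhgc3 were kept, so the shorter length raises this share by construction and does not test the overlap.

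The other gamma C members were lower. Pcdhgc5 was at 12.0, 13.1 and 14.1 CPM in WT cells, 20.9, 14.6 and 7.41 in E3 and 14.7, 16.9 and 16.5 in E5, and it passed no test (log2 fold change 0.13 in E3 and 0.29 in E5, SE 0.28 for each). Pcdhgc4, the isoform that neurons need to survive, was at 0.661, 0.715 and 0.739 CPM in WT cells, 1.28, 1.35 and 0.660 in E3 and 0.603, 0.282 and 0.499 in E5. The E5 libraries were the lowest of all, and E3 replicate 3 lay within the range of the other lines. Pcdhgc4 was lower in E5 than in E3 (log2 fold change -1.24, SE 0.33, FDR = 0.017), a call that was lost without E3 replicate 1 (FDR = 0.055) and without E5 replicate 2 (FDR = 0.068). Against WT it was called in neither clone, with 0.64 in E3 (FDR = 0.16) and -0.60 in E5 (FDR = 0.26).

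**Figure D3:**
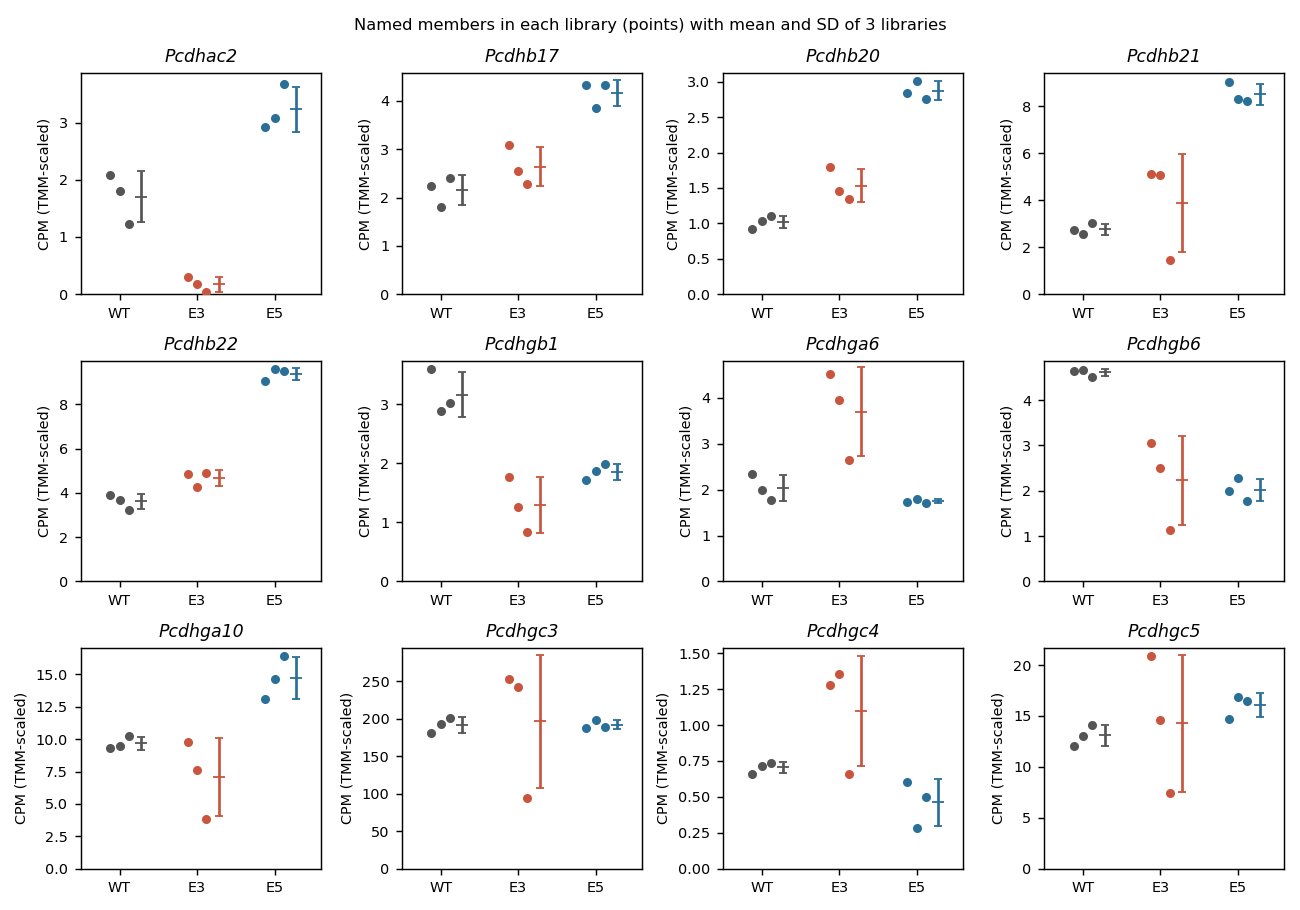
CPM of 12 named clustered protocadherins in each library (points), with the mean and SD of the 3 libraries of each line beside them, and each vertical axis starting at 0. Pcdhac2 shows 3 separate levels, the beta members are highest in E5, and the wide E3 bars of Pcdhgc3 come from replicate 3 at 94.3 CPM.

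Among the A and B members of the gamma cluster, which neurons choose at random, Pcdhga10 led in every library, and more so in clone E5. It was at 9.29, 9.47 and 10.3 CPM in WT cells, 9.80, 7.61 and 3.85 in E3 and 13.1, 14.6 and 16.4 in E5. All E5 libraries were above all others, while E3 ranged from the WT level downwards. Its log2 fold change was 0.61 in E5 (SE 0.26, FDR = 0.13) and -0.45 in E3 (SE 0.26, FDR = 0.23), neither past the threshold, and the clones differed by 1.05 (SE 0.26, FDR = 0.012). The difference between the clones fell to 0.77 without E3 replicate 3, 0.97 without E5 replicate 3 and 0.98 with upper-quartile scaling. The whole of its unshared exon lies opposite the antisense gene Gm26672, which had 0 to 3 counts per library.

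As a share of the A and B members, Pcdhga10 held 33.5 to 37.2% in the WT libraries, 30.5 to 32.6% in those of E3 and 52.2 to 56.7% in those of E5. The summed level of the A and B members was nearly the same in WT cells, at 10.3 ± 0.345 CPM per kb, and in E5, at 10.3 ± 0.727, so in E5 a larger part of a similar total was Pcdhga10. In E3 the sum was 8.52 ± 3.48. The inverse Simpson number was 5.35 ± 0.314 in WT cells, 5.97 ± 0.304 in E3 and 3.14 ± 0.215 in E5 (SD, n = 3). No test was made on the shares, and this split of the gamma cluster was added after the data had been seen.

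**Figure D4:**
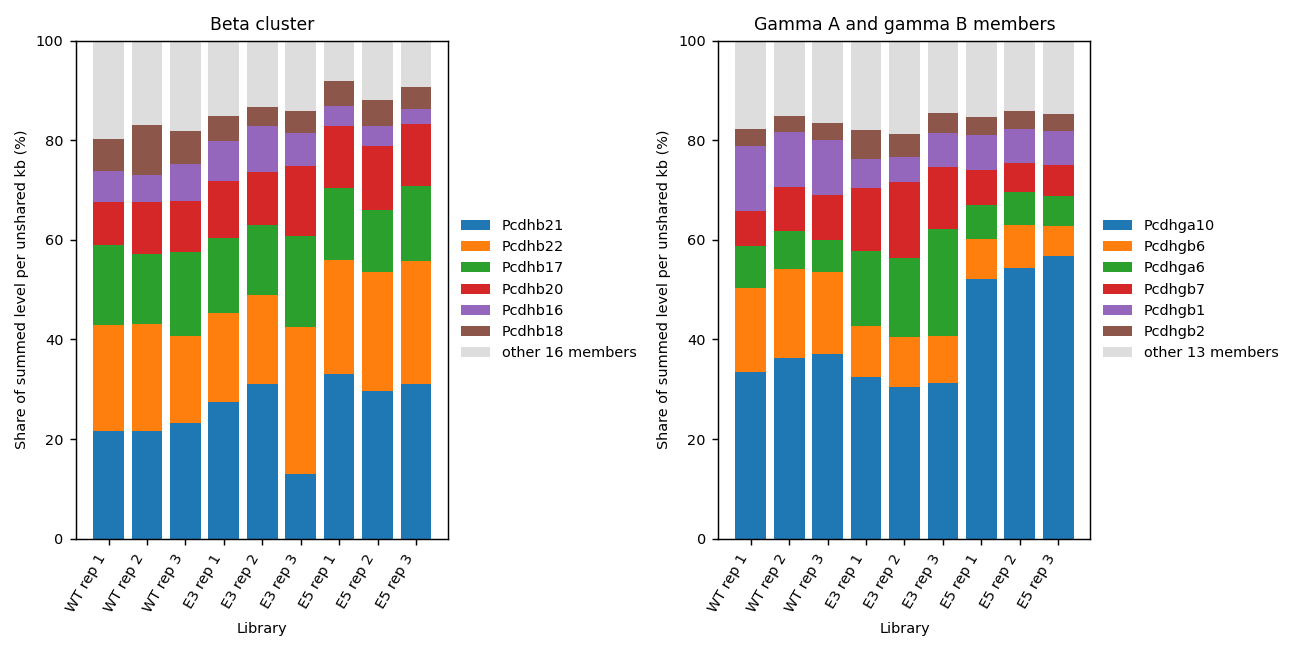
Share of the summed level per unshared kb held by each member in each library (stacked bars, percent), for the beta cluster on the left and for the gamma A and gamma B members on the right, with the 6 largest members in colour and the rest in grey. Pcdhga10 takes 52.2 to 56.7% in the E5 libraries and 30.5 to 37.2% in the others, and Pcdhb21 drops to 12.9% in E3 replicate 3.

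The member next after Pcdhga10 was not the same in every line. Pcdhgb6 came next in all WT libraries with 16.4 to 18.0%, and Pcdhga6 came next in all E3 libraries with 15.0 to 21.5%. In E5 no other member exceeded 8.52%. Pcdhgb6 was at 4.65, 4.67 and 4.52 CPM in WT cells, 3.06, 2.49 and 1.14 in E3 and 2.00, 2.28 and 1.78 in E5. Every library of either clone lay below every WT library. It fell in both clones, with log2 fold changes of -1.04 in E3 (SE 0.28, FDR = 0.018) and -1.19 in E5 (SE 0.28, FDR = 0.013), measured against the same WT libraries. The call in E3 was lost without WT replicate 1 or 2 (FDR = 0.051 and 0.055), without E3 replicate 3 (-0.73) and with upper-quartile scaling (-0.98). That in E5 was lost without E5 replicate 1 or 3 (FDR = 0.052 and 0.054).

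Pcdhga6 was at 2.34, 2.00 and 1.77 CPM in WT cells, 4.52, 3.95 and 2.64 in E3 and 1.72, 1.80 and 1.72 in E5. The E3 libraries were above all others, and WT and E5 overlapped. It was 0.86 higher in E3 than in WT cells (SE 0.21, FDR = 0.011), short of the fold threshold, and 1.05 higher without E3 replicate 3. It was lower in E5 than in E3, with a log2 fold change of -1.08 (SE 0.21, FDR = 0.0032), or -0.92 without E3 replicate 1. Pcdhgb1 was at 3.61, 2.88 and 3.02 CPM in WT cells, 1.78, 1.27 and 0.836 in E3 and 1.72, 1.87 and 2.00 in E5. The WT libraries lay above all KO libraries, and the clones overlapped. Pcdhgb1 fell in E3, at -1.29 (SE 0.24, FDR = 0.0029), a call that held in every alternative, and in E5 its log2 fold change was -0.77 (SE 0.24, FDR = 0.043). Of the 100-base stretches of its unshared exon, 9.69% occur more than once in the region of the clusters and their flanks, counting both strands. Whether the other copies lie in exons was not checked.

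The tested gamma members that were not named had log2 fold changes on both sides of 0 in each clone. Over all 19 tested, 12 were positive and 7 negative in E3, with a median of 0.13, and 9 were positive and 10 negative in E5, with a median of -0.15.

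Regulators of promoter choice gave 1 call over the 3 comparisons. From a list of 29 genes for CTCF, cohesin, DNA methylation and repressive chromatin, all tested, 1 fell in E3 and none rose, while in E5 against WT and in E5 against E3 none was called. Over all genes tested 9.82%, 8.21% and 11.0% were called. At an FDR under 0.05 alone the numbers were 3, 2 and 3, beside 30.5%, 20.6% and 31.9% of all genes. The list's median log2 fold changes were -0.10, 0.11 and 0.17. The gene called was Dnmt3l, a partner of the de novo DNA methyltransferases that has no catalytic activity itself. It was at 2.12, 2.67 and 2.98 CPM in WT cells, 0.520, 1.14 and 0.638 in E3 and 1.31, 1.15 and 1.44 in E5. All KO libraries were below all WT libraries. The log2 fold change was -1.76 in E3 (SE 0.28, FDR = 0.0011) and -0.99 in E5 (SE 0.26, FDR = 0.024). Ctcf, named for its role at these promoters and not by the naming rule, was at 147 ± 11.1 CPM in WT cells, 144 ± 27.8 in E3 and 161 ± 11.1 in E5, and passed no test.

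Genes of protocadherin shedding and signalling were called in both directions in E3 and downwards in E5. Of 28 listed, 26 were tested, and 3 rose and 3 fell in E3, none rose and 5 fell in E5, and none was higher and 4 were lower in E5 than in E3. Among all genes 5.43% rose and 4.39% fell in E3, 2.69% rose and 5.52% fell in E5, and 3.49% were higher and 7.52% lower in E5 than in E3. The list's median log2 fold changes were -0.11, -0.078 and -0.045. Fyn, a Src family kinase that binds alpha protocadherins, was at 131, 140 and 139 CPM in WT cells, 39.9, 33.3 and 35.3 in E3 and 36.1, 50.0 and 58.2 in E5. Both clones lay well below WT, with log2 fold changes of -1.92 (SE 0.16, FDR = 2.7e-05) and -1.50 (SE 0.16, FDR = 9.1e-05).

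Marcks encodes an actin-binding membrane protein that acts downstream of gamma protocadherins in dendrites. It was at 0.481, 0.316 and 0.253 CPM in WT cells, 21.7, 19.5 and 23.0 in E3 and 0, 0 and 0.0185 in E5. It rose in E3 by 5.92 (SE 0.23, FDR = 1.8e-07) and was called lower in E5 (FDR = 0.00021), where a fold is not given because the counts were at the limit of detection. Cyfip2, a subunit of the WAVE actin regulator, was at 0.361, 0.589 and 0.591 CPM in WT cells, 3.44, 2.70 and 2.42 in E3 and 0.345, 0.586 and 0.425 in E5. It rose in E3 by 2.47 (SE 0.26, FDR = 0.00012), and WT and E5 overlapped.

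Gamma-secretase is the protease that cuts the membrane stub left after shedding, and 3 of its listed subunits were called in at least 1 comparison. Psen2 was at 7.01, 6.14 and 6.56 CPM in WT cells, 2.58, 2.13 and 2.73 in E3 and 4.35, 3.93 and 5.40 in E5. The lines did not overlap, and Psen2 fell in E3, with a log2 fold change of -1.41 (SE 0.16, FDR = 0.00018) and -0.53 in E5 (FDR = 0.037). Aph1c was at 0.341, 0.400 and 0.464 CPM in WT cells, 0.680, 0.634 and 0.901 in E3 and 0.0215, 0 and 0.0185 in E5. It was called lower in E5 against WT (FDR = 0.00018), again at the limit of detection, while in E3 it was 0.87 higher (FDR = 0.040), short of the fold threshold. Outside the naming rule, Aph1b rose in E3 by 1.08 (SE 0.15, FDR = 0.00052), Ncstn was lower at an FDR under 0.05 alone in E3 (-0.27) and E5 (-0.39), and Aph1a and Psenen passed no test.

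Protocadherins outside the clusters share no exons with each other. Of 12 listed, 5 were tested. In E3, 2 of the 5 rose and none fell, beside 5.43% and 4.39% of all genes. In E5, 4 fell and none rose, beside 5.52% and 2.69%, and all 5 were lower in E5 than in E3, beside 7.52%. The median log2 fold change was 0.94 in E3, and with genes at 0 counts in E5 set at their bound it was -3.06 in E5 against WT and -3.59 for E5 against E3. Pcdh19, whose human counterpart is mutated in an epilepsy of girls, was at 10.1, 9.91 and 10.8 CPM in WT cells, 39.9, 48.1 and 28.8 in E3 and 0.819, 0.889 and 0.943 in E5. The lines were fully separate, with 1.92 in E3 (SE 0.17, FDR = 3.5e-05) and -3.53 in E5 (SE 0.20, FDR = 1.2e-06).

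Pcdh7 was at 19.2, 20.8 and 24.5 CPM in WT cells, 26.9, 30.2 and 14.0 in E3 and 0.108, 0.130 and 0.0370 in E5. WT and E3 overlapped, and E5 was lower by a log2 fold change of -7.87 (SE 0.42, FDR = 8.6e-07). Pcdh18 was at 3.97, 4.25 and 4.24 CPM in WT cells, 11.8, 14.5 and 8.84 in E3 and 3.36, 3.12 and 3.00 in E5. It rose in E3 by 1.49 (SE 0.17, FDR = 0.00018) and was called lower in E5 than in E3, at -1.89 (SE 0.18).

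Pcdh17 was at 0.300, 0.610 and 0.633 CPM in WT cells, 0.680, 0.972 and 0.572 in E3 and 0 in all E5 libraries. Pcdh1 was at 0.421, 0.252 and 0.338 CPM in WT cells, 0.820, 0.528 and 0.594 in E3 and likewise 0 in E5. Measured against the level that 3 counts in each E5 library would give, Pcdh17 was at least 8.34-fold lower in E5 than in WT cells (FDR = 0.00064) and Pcdh1 at least 5.46-fold lower (FDR = 0.00056). Pcdh1 lies on the same chromosome, 344 kb beyond the gamma cluster.

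**Figure D5:**
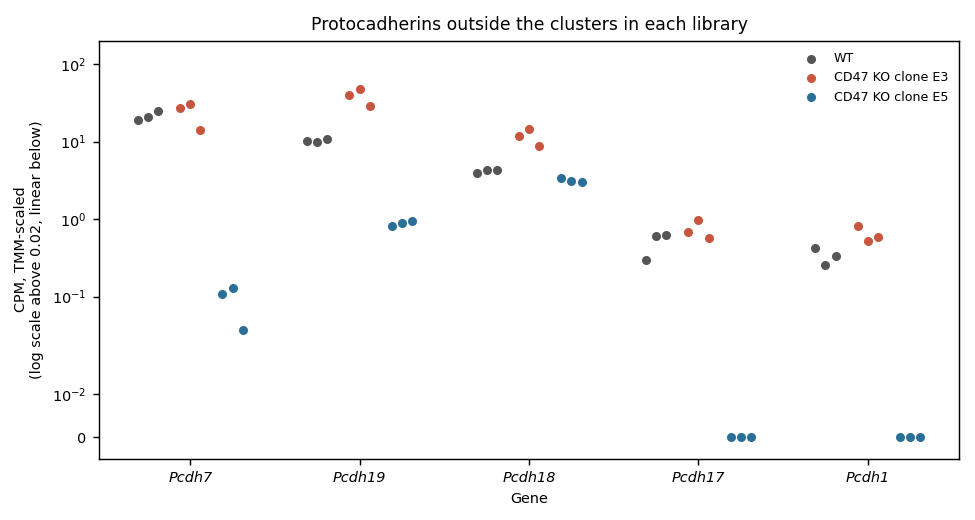
CPM of the 5 tested protocadherins that lie outside the clusters, in each library (vertical axis, logarithmic above 0.02 and linear below). The E5 points of Pcdh7 and Pcdh19 lie at least a decade below those of WT and E3, and those of Pcdh17 and Pcdh1 are at 0.

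Genes around the clusters gave 1 call in E5 against WT and none in E3. Of 13 listed as flanking genes, 12 lie on chromosome 18 near or between the clusters, and Relch, on chromosome 1, was listed in error. Of the 13, 12 were tested, with Relch among them, while Slc25a2 on chromosome 18 was not tested. None of these 12 was called in E3, beside 9.82% of all genes. At an FDR under 0.05 alone 1 of them, Wdr55, was lower in E3 (-0.54, FDR = 0.0011), beside 30.5% of all genes. In E5 the 1 call, 8.33% of the 12 beside 8.21% of all genes, was Arap3, a GTPase-activating protein. Arap3, 131 kb beyond the gamma cluster, was at 30.5, 30.9 and 30.6 CPM in WT cells, 37.5, 27.6 and 29.9 in E3 and 4.09, 5.60 and 4.60 in E5. Its E5 libraries lay far below the rest, with a log2 fold change of -2.69 (SE 0.15, FDR = 1.2e-06). The medians of the 12 tested, Relch included, were 0.033 in E3 and 0.099 in E5 against WT, and -0.042 for E5 against E3. Between Arap3 and the gamma cluster lies Diaph1, and its nearer end is 1.73 kb past the last gamma exon. Diaph1 was not called in either clone, at 107 ± 5.05 CPM in WT cells, 105 ± 21.5 in E3 and 116 ± 5.42 in E5. It is named for its position, after its values had been seen.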

How the data were processed

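Libraries of polyadenylated RNA came from a directional kit, with paired-end reads. The authors used Trimmomatic for trimming and STAR for alignment to GRCm39, and the deposited values are raw counts per gene. The counter, its strand setting and its annotation are not given in the sources used here.

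Counts of all 50813 genes were fitted with edgeR 4.0.16 (R 4.3.3; quasi-likelihood test, TMM, filterByExpr with a minimum count of 10, all 9 libraries, no block); 14593 genes were tested, with a coefficient of variation of 14.8% between replicates. A call needs an FDR under 0.05 (Benjamini-Hochberg) and an absolute log2 fold change above 1. SE is the size of the log2 fold change divided by the root of its F statistic. On simulated counts with 200 changed genes, 179 were recovered for E3 (3 false, 14349 genes) and 176 for E5 (1 false, 14376 genes). Limits of 3 counts cover counting error only.

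Levels used exon bases of the GENCODE vM39 annotation of GRCm39 that no other gene covers on the same strand. Of the 58 members, 38 start where vM39 has them and 26 have the same gene version. Pcdhb20, Pcdhb21 and Pcdhb22 match in both, but Pcdhac2, Pcdhgc3, Pcdhga10, Pcdhgb6 and Pcdhga6 in neither. Lengths of such members may therefore differ from those behind the counts.

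Named members are the 3 highest per cluster and line, those called and the C types; other lists give at most 5 called genes. Members and lists were chosen with earlier results of these data known. Alternatives were DESeq2 1.42.0, its size factors, upper-quartile scaling, filters, 2-group fits, the replicate block, other lengths and each library left out.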

Additional observations from a re-analysis of the deposited data

Results flagged for a closer look

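The responses of the 2 KO clones differed for 6 of the 30 clustered protocadherins tested in the direct test of E5 against E3, beside 11.0% of all genes (edgeR, quasi-likelihood, Benjamini-Hochberg adjusted). Pcdhac2 differed by a log2 fold change of 4.20, lower in E3 and above WT, but not called, in E5. Pcdhb21 (1.13), Pcdhb22 (1.01) and Pcdhga10 (1.05) were higher in E5. Pcdhga6 (-1.08) and Pcdhgc4 (-1.24) were lower in E5. Each clone is 1 line, so a difference between clones cannot be told apart from a difference between single cells of the parent line. Groups of 3 libraries are too small for the test of single outlying samples.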

How the results depend on the processing

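Members called against WT numbered 3 in E3 and 4 in E5, and 6 between the clones. At an FDR under 0.05 alone the E3 count was 6. With libraries left out in turn the counts ranged over 2 to 3, 3 to 5 and 3 to 6, the lowest of the last without KO_E5 replicate 2. With the replicate number as a block the counts stayed at 3, 4 and 6. The numbers did not pair the samples, since same-numbered libraries deviated with correlations of -0.29 to 0.12. The block turned the uncalled Pcdhgc3 to -0.041 in E3, -0.0081 in E5 and 0.033 between the clones.

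In some settings a leading share within a cluster moved by more than 1 SD, or the leading member changed. Without division by length Pcdhb22 and not Pcdhb21 led the beta cluster, at 25.7% (WT), 27.7% (E3) and 30.4% (E5). Of these, the E3 and E5 values lay within 1 SD of the main shares. Gamma in WT was then at 82.3%. By whole exonic length the leading shares were 20.8% (beta, WT), 82.5% (gamma, WT) and 81.8% (gamma, E5). With members of at least 10 mean counts beta in WT was at 23.9%. With exons on either strand left out of the length and counts kept, a setting chosen after seeing the data, gamma was at 90.9% (WT), 91.2% (E3) and 92.1% (E5). Beta in E3 ranged over 23.8 to 29.2% with 1 replicate left out, within 1 SD of the main share. Without replicate 1 or 2 the leader was Pcdhb22 at 23.8% and not Pcdhb21.

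Signs turned only for fold changes that were not called. Pcdhgc3 in E3 ranged from -0.19 to 0.37 with libraries left out. In E5 it was -0.013 with upper-quartile scaling, -0.012 with no filter and -0.0094 with at least 10 counts in every library, and ranged from -0.044 to 0.032 with libraries left out. Between the clones it ranged from -0.36 to 0.19. With libraries left out, Pcdhgb6 between the clones ranged from -0.46 to 0.14, Pcdhgc5 in E3 from -0.25 to 0.44 and Pcdhgc5 between the clones from -0.14 to 0.54, in each case turned by E3 replicate 1 or 3. The cause was not tested. Members under about 10 counts per library are limited by depth.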
